A study of Homo sapiens with 16 samples.

Results

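The genes described are the 39 HOX genes of the 4 human HOX clusters and the 13 genes with a TBX symbol, taken by their symbols from a table of 61806 genes. They are 52 genes in all, with 11 in HOXA, 10 in HOXB, 9 in HOXC, 9 in HOXD and 13 TBX genes. Poly(A) RNA was sequenced from LX-2, a permanent culture line derived from hepatic stellate cells of human liver. These mesenchymal cells lay down fibrillar collagen when the liver is injured. The 4 groups held 4 libraries each. The Fn14 KO group was LX-2 with a CRISPR/Cas9 knockout of all Fn14, given the vehicle PBS for 2 h. The Fn14alpha KO group was LX-2 with a knockout aimed at the Fn14alpha isoform, also given PBS. The TWEAK group was wild-type LX-2 given 100 ng/mL of the cytokine TWEAK for 2 h, and the WT group was wild-type LX-2 given PBS. Fn14 is the cell surface receptor of TWEAK, and the study's title concerns an isoform that signals without it. All groups were grown in the same reduced-serum endothelial medium. No source used here says if a knockout line came from 1 clone or from many cells. Each genotype is its own line, so an effect of the knockout and an older difference between lines cannot be told apart. How the 4 replicates of a group were separated is also not stated. The spread behind each p-value is thus that between libraries and may be technical.

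HOX genes encode homeodomain transcription factors that give cells their position along the body axis and the limbs. In each cluster the genes lie in the order in which they are used, with low paralogue numbers in anterior and high numbers in posterior regions, and fibroblasts in culture keep much of the HOX pattern of the site they came from. HOX proteins bind DNA together with PBX and MEIS cofactors, while Polycomb complexes hold silent HOX genes off and trithorax complexes keep active ones on. Retinoic acid, whose precursor is stored by quiescent stellate cells, switches on anterior HOX genes in embryos. T-box genes encode another family of developmental transcription factors, used in the heart, limbs, pharynx and mesenchyme of many organs.

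Total counts ran from 13335919 to 16888606 per library. FPKM, the level used throughout, is the authors' count scaled by exon length and by library total. TNFRSF12A, the gene of Fn14, averaged 33.6 ± 2.77 FPKM in Fn14 KO, 59.3 ± 6.43 in Fn14alpha KO and 130 ± 7.07 with TWEAK, against 128 ± 6.29 in WT (SD, n = 4 each). Among the principal components of all genes, Fn14 KO replicate 1 (-24.5) and WT replicate 4 (-37) stood apart on the component numbered 3 from the other 14 libraries, which ran from -10.4 to 19.9. Of 14 stellate cell and fibroblast markers 12 were tested against WT as described below. In Fn14 KO 6 were higher and 5 lower, where 26.6% and 26.3% of all genes were. In Fn14alpha KO 2 were higher and 9 lower, where 20% and 22.2% of all genes were. With TWEAK 2 were higher and 2 lower, where 4.82% and 2.05% of all genes were. COL1A1 averaged 196 FPKM in Fn14 KO against 133 in WT, whereas COL3A1 averaged 8.33 against 23.7, COL1A2 0.16 against 1.48 and DCN 0.995 against 3.78. LRAT, an enzyme of retinoid storage, held 2 counts in all 16 libraries. The 14 markers summed to 934 to 1050 FPKM in Fn14 KO, 546 to 560 in Fn14alpha KO and 884 to 961 with TWEAK, against 681 to 728 in WT, most of it from VIM, COL1A1 and TIMP1. In the same order of groups, 8 hepatocyte markers summed to 0.26 to 0.73, 1.02 to 1.38, 2.55 to 3.14 and 2.26 to 2.67 FPKM, most of it from SERPINA1, with APOA2 and TTR at 0 counts. The 8 endothelial markers summed to 8.49 to 9.45, 21.5 to 23.4, 17.6 to 20.8 and 17.8 to 20.2 FPKM, nearly all of it from TIE1, with CLEC4M at 0. The 6 cholangiocyte markers summed to 11.3 to 12.8, 5.61 to 7.24, 5.54 to 6.22 and 5.41 to 6.47 FPKM, most of it from SOX9. The 8 leukocyte markers summed to 1.63 to 2.8, 0.82 to 1.56, 1.4 to 2.25 and 1.63 to 2.16 FPKM. The part of these marker differences in the results was not tested.

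LX-2 had a broad HOX pattern led by HOXB. A gene was taken as expressed where any group's mean reached 1 FPKM, which held for 36 of the 52 genes. These were 8 of 11 in HOXA, 9 of 10 in HOXB, 8 of 9 in HOXC, 7 of 9 in HOXD and 4 of the 13 TBX genes. HOXB gave the largest share of the summed HOX level in each of the 4 groups, with 65.7 ± 1.88% in Fn14 KO, 65.4 ± 0.461% in Fn14alpha KO and 58.3 ± 0.919% with TWEAK, against 59.3 ± 1.84% in WT (SD, n = 4 each). HOXC followed with 24.8 ± 1.52%, 15.6 ± 0.257% and 23.9 ± 0.614%, against 23.6 ± 1.19% in WT. The pattern reached from the anterior to the posterior end of the clusters. In WT, paralogues 1 to 4 summed to 58.8 ± 3.17 FPKM, paralogues 5 to 8 to 68.4 ± 7.26 and paralogues 9 to 13 to 48.3 ± 1.49. In Fn14 KO the same 3 sums were 65.8 ± 2.57, 51.6 ± 6.8 and 40.5 ± 1.83 FPKM, and in Fn14alpha KO they were 72.3 ± 1.44, 69.4 ± 2.27 and 61.2 ± 0.771. Such sums follow the highest genes. HOXB2 averaged 38.2 FPKM in Fn14 KO against 21.9 in WT, and HOXB7 averaged 30.2 against 40.7. Of the 10 genes numbered 1 to 4 that were tested, 1 was higher and 6 lower in Fn14 KO, against 26.6% and 26.3% of all genes. The number of the 39 HOX genes at or above 1 FPKM was 22 in Fn14 KO, 30 in Fn14alpha KO and 26 with TWEAK, against 29 in WT. HOXA and HOXD held most of the gap between Fn14 KO and WT, with 4 HOXA and 3 HOXD genes at that level in Fn14 KO, against 8 and 5 in WT.

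**Figure D1:**
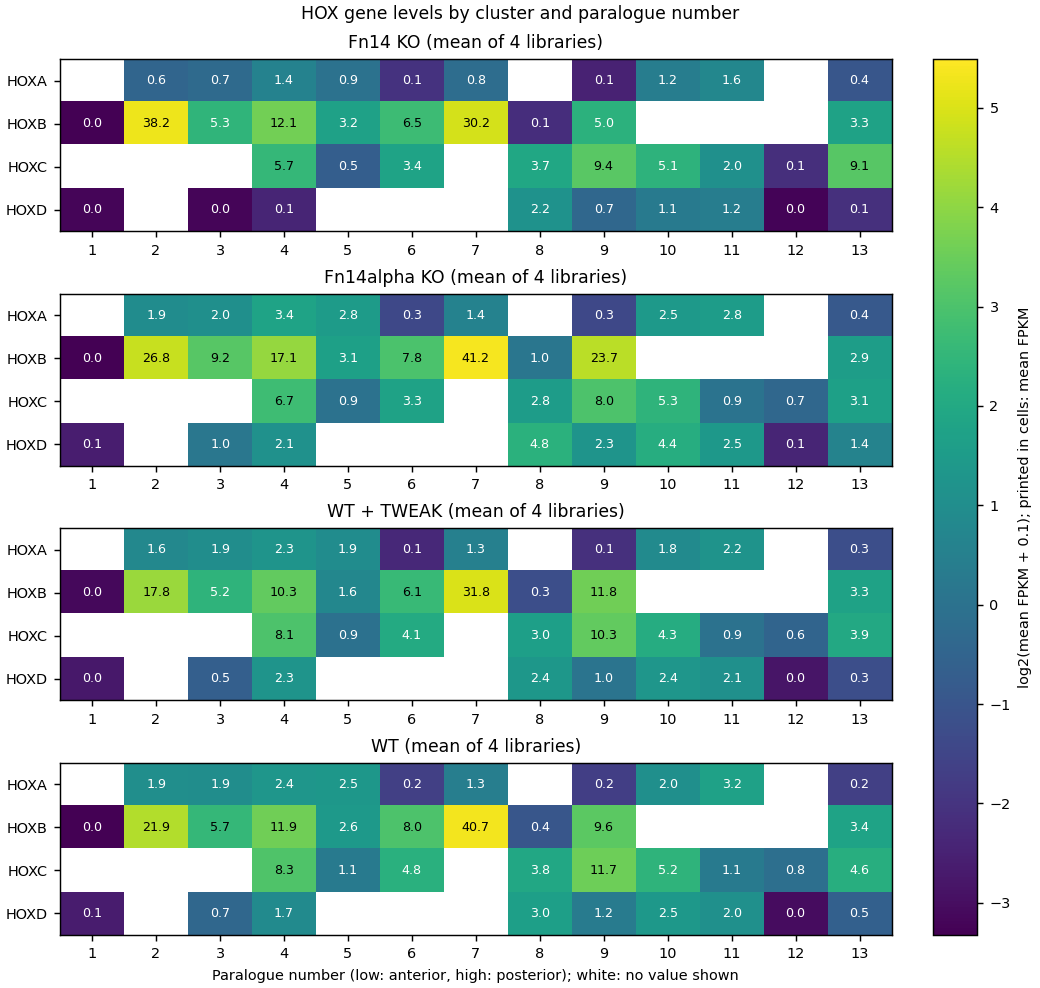
Mean FPKM of HOX genes by cluster (rows) and paralogue number (columns), with a panel for each group of 4 libraries. Colour is log2 of the mean FPKM plus 0.1, the number in a cell is the mean FPKM, and white cells show no value. HOXB2 and HOXB7 are bright in all 4 panels, and the cells of HOXD3 and HOXD4 are darkest in Fn14 KO.

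Averaged over the 16 libraries, the highest HOX gene was HOXB7, from the centre of its cluster. HOXB7 had 37.12, 31.46, 26.1 and 26.21 FPKM in Fn14 KO, 40.42, 39.5, 43.57 and 41.35 in Fn14alpha KO, 31.31, 34.01, 28.77 and 32.95 with TWEAK, and 37.29, 35.33, 41.7 and 48.33 in WT. Each knockout group overlapped WT for HOXB7, and all TWEAK libraries lay below all WT libraries. The log2 fold change of HOXB7 with TWEAK was -0.30 ± 0.10 (SE) and did not pass the test described below (edgeR adjusted p = 0.0887). HOXB2, which patterns the hindbrain, came next at 38.2 ± 2.74 FPKM in Fn14 KO, 26.8 ± 0.777 in Fn14alpha KO and 17.8 ± 0.671 with TWEAK, against 21.9 ± 1.54 in WT. In Fn14 KO the mean of HOXB2 exceeded that of HOXB7, and the libraries of these neighbours in the order overlapped. HOXB4, known for expanding blood stem cells when forced on, had 11.9 ± 0.951 FPKM in WT, and HOXC9, HOXB9, HOXC4 and HOXB6 had 11.7 ± 1.42, 9.57 ± 0.346, 8.26 ± 0.593 and 8.01 ± 1.07. HOXB4 and HOXC9 did not differ beyond their spread. HOXC9, used in the thoracic spinal cord of mice, led HOXC with 9.32, 10.42, 8.73 and 9.04 FPKM in Fn14 KO, 7.34, 8.12, 8.36 and 8.17 in Fn14alpha KO, 10.4, 10.55, 10.42 and 9.99 with TWEAK, and 11.48, 10.02, 13.48 and 11.73 in WT. The HOXC9 libraries of Fn14alpha KO lay below all WT libraries, and those of the other groups overlapped WT. HOXB13, at the posterior end of HOXB and known from the prostate, had group means of 2.89 to 3.37 FPKM.

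The 16 genes under 1 FPKM in each group were not all silent. TBX22, a gene of palate development, was the only member with 0 counts in all 16 libraries, which allows at most 3 counts in 242125136, or 0.00465 FPKM, counting error only. HOXB1, which acts in the hindbrain, had 2 counts in all, both in the TWEAK group. The others that did not pass the filter on low counts were HOXA6 (58 counts in all), HOXD1 (20), HOXD12 (24), TBX4 (8), TBX5 (61), TBX6 (71), TBX10 (6), TBX15 (26) and TBX21 (14). HOXA9, HOXA13, HOXC12, TBX19 and TBX20 passed the filter, with largest group means of 0.277, 0.445, 0.84, 0.62 and 0.852 FPKM. With the cut at 0.5 or 2 FPKM, 39 or 30 genes counted as expressed. TBX5, the forelimb and heart gene of Holt-Oram syndrome, had 1 count in Fn14 KO and 1 in Fn14alpha KO, against 29 in WT. The ratio to WT per total count was 0.0354 in Fn14 KO and 0.0373 in Fn14alpha KO, with 95% exact counting intervals of 0.000867 to 0.214 and 0.000912 to 0.225. TBX5 was not tested across libraries, and the TWEAK libraries held 30 counts.

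Each group was compared with WT, and Fn14 KO with Fn14alpha KO, by edgeR's quasi-likelihood test on counts. A gene was called at an adjusted p of 0.05 or less over all 16029 genes that passed the filter, and 41 of the 52 members were among these. In Fn14 KO against WT, 28 of the 41 were called, 6 higher and 22 lower, against 52.9% of all genes called (26.6% higher and 26.3% lower). The median log2 fold change was -0.41 over the members and -0.01 over all genes. In Fn14alpha KO against WT, 20 of the 41 were called, 13 higher and 7 lower, against 42.2% of all genes called (20% higher and 22.2% lower), a share near the background. The medians were 0.23 over the members and 0.01 over all genes. In Fn14 KO against Fn14alpha KO, 32 were called, 8 higher and 24 lower, against 59.2% of all genes (30.7% higher and 28.5% lower), with medians of -0.65 and 0.00. TWEAK moved 5 of the 41 members, with 2 higher and 3 lower, against 6.87% of all genes called (4.82% higher and 2.05% lower). A log2 fold change of at least 1 in either direction was reached by 13 called members in Fn14 KO, 2 higher and 11 lower, against 12.9% of all genes (4.20% and 8.72%). In Fn14alpha KO it was reached by 5 members, all higher, against 7.67% of all genes (3.14% higher and 4.52% lower). Between the knockouts it was reached by 3 higher and 15 lower members, against 5.98% and 9.28% of all genes. The FPKM of the groups did not overlap for 28 members in Fn14 KO, 23 in Fn14alpha KO and 11 with TWEAK, each against WT, where the shares of all genes were 44.0%, 39.6% and 17.4%. The 3 comparisons with WT share the WT libraries. In bulk RNA, fewer cells with a transcript and less of it per cell cannot be told apart.

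**Figure D2:**
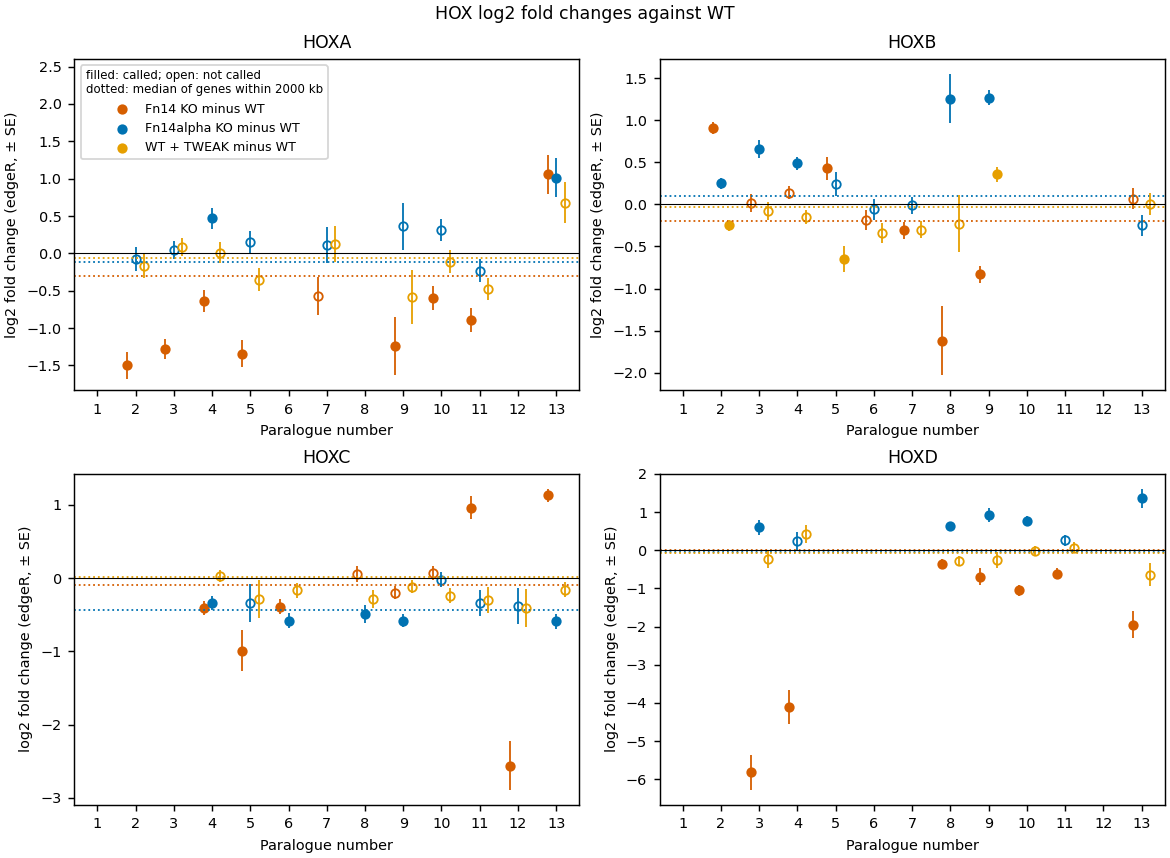
Log2 fold change (edgeR, ± SE) against WT of tested HOX genes, by paralogue number in each cluster, for Fn14 KO, Fn14alpha KO and TWEAK. Filled points were called, open points were not, and dotted lines mark the median of the other genes within 2000 kb of the cluster. All 7 HOXD points of Fn14 KO lie below 0, and the 5 filled HOXC points of Fn14alpha KO lie near the dotted line of that comparison.

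HOXD changed as a block in Fn14 KO. The cluster spans 98.2 kb at chr2:176092721-176190907 (GRCh38), and HOXD genes are best known for limb and digit patterning. All 7 HOXD genes tested were lower in Fn14 KO than in WT, with log2 fold changes of -5.81 to -0.37 and a median of -1.05. All 7 were called lower, against 26.3% of all genes, and their groups were separate, against 44.0% of all genes. The 24 other tested genes within 2000 kb of the cluster had a median of 0.01, with 3 higher and 7 lower. The summed HOXD level was 5.42 ± 0.223 FPKM in Fn14 KO, 18.7 ± 0.369 in Fn14alpha KO and 11 ± 0.984 with TWEAK, against 11.8 ± 0.46 in WT (SD, n = 4 each). The anterior members fell furthest. HOXD3, which acts in the neck vertebrae and in cell adhesion, had 0, 0, 0 and 0.03 FPKM in Fn14 KO, 1.18, 0.87, 1.09 and 0.96 in Fn14alpha KO, 0.46, 0.48, 0.53 and 0.69 with TWEAK, and 0.78, 0.69, 0.6 and 0.59 in WT. All Fn14 KO libraries lay below, and all Fn14alpha KO libraries above, the WT libraries. The 2 counts of HOXD3 in Fn14 KO against 154 in WT gave a ratio per total count of 0.0133, with a 95% exact counting interval of 0.0016 to 0.049. Against the 222 counts in Fn14alpha KO, the ratio was 0.00856 (0.00103 to 0.0313). The fitted log2 fold change of HOXD3 in Fn14 KO was -5.81 ± 0.46 (SE, edgeR adjusted p = 1.9e-10), and in Fn14alpha KO it was 0.60 ± 0.20 (edgeR adjusted p = 0.0199). The call in Fn14alpha KO was lost without Fn14alpha KO replicate 1, WT replicate 3 or WT replicate 4 (adjusted p = 0.0711, 0.0536 and 0.0509).

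HOXD4, a neighbour of HOXD3 and a hindbrain gene, had 0.18, 0.11, 0.06 and 0 FPKM in Fn14 KO, 2.01, 2.11, 1.35 and 2.83 in Fn14alpha KO, 2.56, 1.81, 1.78 and 2.9 with TWEAK, and 1.91, 1.77, 1.56 and 1.7 in WT. The Fn14 KO libraries were far below all others, and the remaining groups overlapped WT. The 6 counts of HOXD4 in Fn14 KO against 124 in WT gave a ratio of 0.0497 (95% exact counting interval 0.0179 to 0.111), and the fitted log2 fold change was -4.11 ± 0.44 (edgeR adjusted p = 2.92e-08). The promoters of these anterior genes, and that of HOXD13 at the other end of the cluster, are shown because the sharpest losses in Fn14 KO and the strongest HOXD gain in Fn14alpha KO fell on them. Each is 250 bases before and 50 after the start of a RefSeq transcript (GRCh38.p14), 5′ to 3′ on the plus strand, at chr2:176157057-176157356 for HOXD3, chr2:176151300-176151599 for HOXD4 and chr2:176092471-176092770 for HOXD13. Capitals mark the letters TATAAA, searched on both strands, whose 2 matches in HOXD13 overlap and which 11.5% of 35116 RefSeq promoters of this length hold.
HOXD3: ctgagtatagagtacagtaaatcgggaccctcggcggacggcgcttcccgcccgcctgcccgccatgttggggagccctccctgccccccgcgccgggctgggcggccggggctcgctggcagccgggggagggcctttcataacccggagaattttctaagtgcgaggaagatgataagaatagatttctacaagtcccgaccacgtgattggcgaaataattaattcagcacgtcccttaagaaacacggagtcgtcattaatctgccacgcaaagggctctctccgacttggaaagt
HOXD4: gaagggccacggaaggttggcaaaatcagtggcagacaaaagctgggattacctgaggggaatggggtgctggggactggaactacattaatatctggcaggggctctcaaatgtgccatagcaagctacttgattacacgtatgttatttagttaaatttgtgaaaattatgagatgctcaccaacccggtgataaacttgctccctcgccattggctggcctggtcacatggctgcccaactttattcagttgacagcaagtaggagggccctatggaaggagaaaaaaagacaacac
HOXD13: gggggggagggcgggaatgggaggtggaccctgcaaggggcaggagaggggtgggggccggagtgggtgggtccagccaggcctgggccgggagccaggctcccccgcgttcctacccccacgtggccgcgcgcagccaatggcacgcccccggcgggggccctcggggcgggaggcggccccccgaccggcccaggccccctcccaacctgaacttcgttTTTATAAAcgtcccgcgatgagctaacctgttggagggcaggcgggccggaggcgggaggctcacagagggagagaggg
The pair C followed by G, which marks CpG islands, occurred 25 times in the HOXD3 window, 4 times in that of HOXD4 and 24 times in that of HOXD13, against a median of 14 in all promoters and 21 in the 39 promoter entries of the 30 members that had any. A letter match is a description of the sequence and not of binding.

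The tested HOXD genes from HOXD8 to HOXD13 were lower in Fn14 KO and mostly higher in Fn14alpha KO. Of the 7 HOXD genes tested, 5 were called higher in Fn14alpha KO and 2 were not called, where 20% of all genes were called higher. HOXD13, whose mutations fuse and duplicate digits, had 0.17, 0.05, 0.15 and 0.16 FPKM in Fn14 KO, 1.38, 1.45, 1.61 and 1.33 in Fn14alpha KO, 0.33, 0.52, 0.16 and 0.34 with TWEAK, and 0.7, 0.56, 0.39 and 0.54 in WT. Its Fn14 KO libraries lay below and its Fn14alpha KO libraries above all WT libraries. The log2 fold change of HOXD13 was -1.95 ± 0.36 in Fn14 KO (edgeR adjusted p = 7.48e-05) and 1.36 ± 0.25 in Fn14alpha KO (edgeR adjusted p = 8.89e-05). HOXD10, a limb and spinal motor neuron gene, had 1.1, 1, 1.08 and 1.26 FPKM in Fn14 KO, 4.26, 4.5, 4.06 and 4.61 in Fn14alpha KO, 2.13, 2.37, 2.74 and 2.29 with TWEAK, and 2.2, 2.17, 2.92 and 2.7 in WT. The same order held, with no overlap between either knockout and WT. The log2 fold change of HOXD10 was -1.05 ± 0.14 in Fn14 KO (edgeR adjusted p = 1.12e-06) and 0.77 ± 0.12 in Fn14alpha KO (edgeR adjusted p = 1.48e-05). HOXD8, the highest HOXD gene, had 2.47, 2.06, 2 and 2.12 FPKM in Fn14 KO, 5.27, 4.54, 4.85 and 4.64 in Fn14alpha KO, 2.87, 1.99, 2.21 and 2.62 with TWEAK, and 2.96, 2.82, 2.91 and 3.48 in WT. HOXD8 was thus separate from WT in both knockouts, with a log2 fold change of -0.37 ± 0.13 in Fn14 KO (edgeR adjusted p = 0.0153) and 0.63 ± 0.12 in Fn14alpha KO (edgeR adjusted p = 0.00011). The Fn14 KO call of HOXD8 was lost without WT replicate 4 (adjusted p = 0.0623). HOXD9 had 0.67 ± 0.0383 FPKM in Fn14 KO and 2.28 ± 0.286 in Fn14alpha KO, against 1.18 ± 0.246 in WT, and its Fn14 KO call was lost without WT replicate 3 (edgeR adjusted p = 0.0537). HOXD11 had 1.23 ± 0.133 FPKM in Fn14 KO, 2.49 ± 0.131 in Fn14alpha KO and 2.04 ± 0.17 in WT, and passed the test in Fn14 KO alone of these comparisons with WT.

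Set directly against each other, the knockouts differed in every HOXD gene tested. All 7 were lower in Fn14 KO than in Fn14alpha KO, with log2 fold changes of -6.41 to -0.87 and a median of -1.82, and their groups were separate, against 51.4% of all genes. Of all genes, 28.5% were called lower. HOXD13 differed by -3.31 ± 0.32, HOXD10 by -1.82 ± 0.14 and HOXD8 by -1.01 ± 0.12 (edgeR adjusted p = 4.15e-09, 4.54e-11 and 1.63e-07). This comparison does not use the WT libraries.

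**Figure D3:**
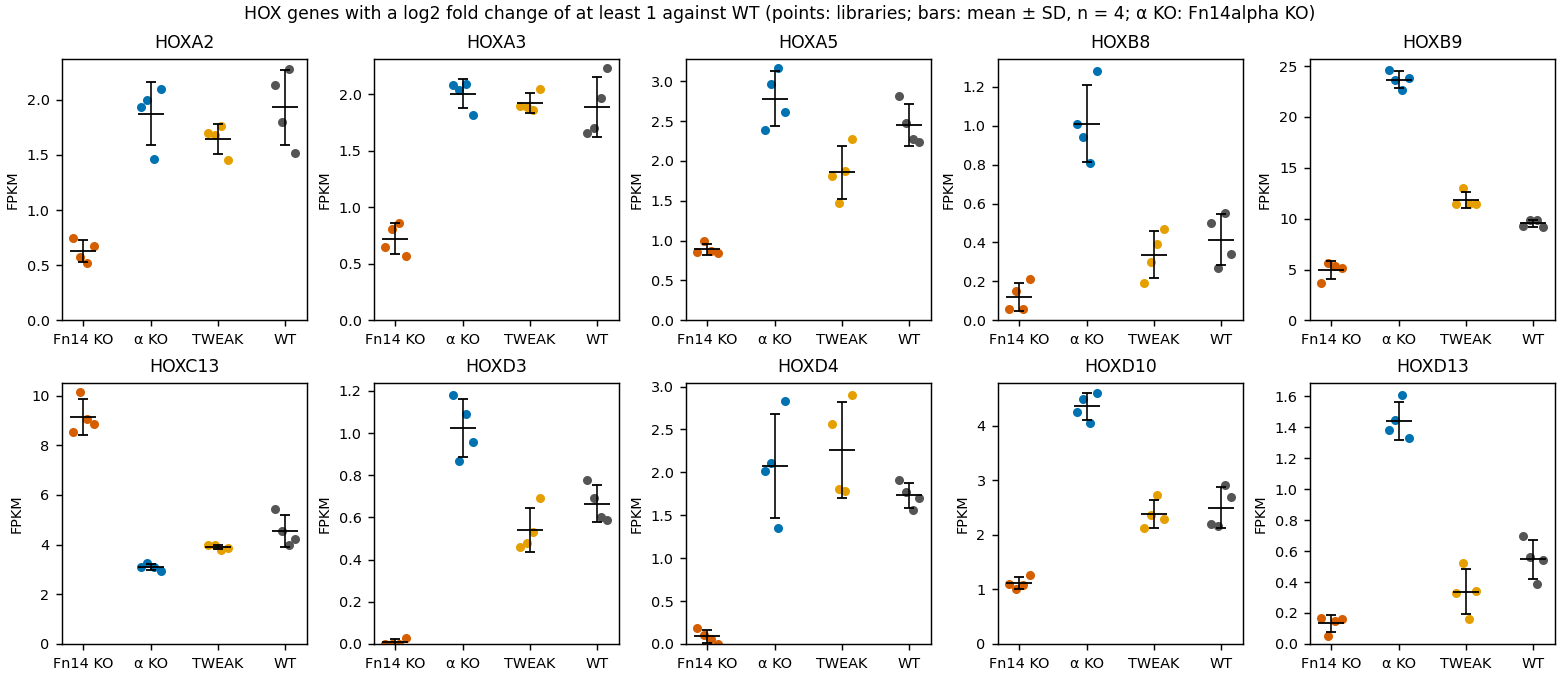
FPKM in each library of the 10 expressed HOX genes that were called against WT with a log2 fold change of at least 1 in either direction. Points are libraries, bars are mean ± SD (n = 4), and α KO is Fn14alpha KO. The Fn14 KO points lie below all WT points for the HOXA, HOXB and HOXD genes shown and above them for HOXC13.

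HOXA fell broadly in Fn14 KO, apart from the last gene at its posterior end, HOXA13, which was higher. The cluster spans 107 kb at chr7:27092993-27200091 (GRCh38). Of 10 HOXA genes tested, 7 were lower in Fn14 KO than in WT, 1 was higher and 2 did not pass. Of all genes, 26.3% were called lower and 26.6% higher. The groups of all 10 were separate, against 44.0% of all genes. The median log2 fold change was -0.76. The 12 other tested genes within 2000 kb had a median of -0.30, with 1 higher and 5 lower. The summed HOXA level was 9.6 ± 0.161 FPKM in Fn14 KO, 20 ± 0.755 in Fn14alpha KO and 15.8 ± 0.749 with TWEAK, against 18.1 ± 0.717 in WT. HOXA2, which sets the identity of the hyoid arch, had 0.75, 0.57, 0.52 and 0.67 FPKM in Fn14 KO, 1.93, 2, 1.46 and 2.1 in Fn14alpha KO, 1.7, 1.68, 1.76 and 1.45 with TWEAK, and 2.13, 1.8, 2.28 and 1.52 in WT. HOXA3, a gene of the thymus and parathyroid, had 0.65, 0.81, 0.86 and 0.57 FPKM in Fn14 KO, 2.08, 2.04, 2.09 and 1.82 in Fn14alpha KO, 1.9, 1.89, 1.86 and 2.05 with TWEAK, and 1.66, 1.7, 1.97 and 2.23 in WT. HOXA5, needed for the lung and trachea, had 0.86, 0.99, 0.87 and 0.84 FPKM in Fn14 KO, 2.39, 2.96, 3.16 and 2.61 in Fn14alpha KO, 1.81, 1.47, 1.87 and 2.27 with TWEAK, and 2.81, 2.48, 2.28 and 2.24 in WT. For these 3 genes Fn14 KO was separate from every other group, and Fn14alpha KO and TWEAK overlapped WT. Their log2 fold changes in Fn14 KO were -1.50 ± 0.18, -1.28 ± 0.14 and -1.34 ± 0.18 (edgeR adjusted p = 2.67e-07, 4.41e-08 and 6.66e-07).

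HOXA11 had 1.66, 1.57, 1.49 and 1.67 FPKM in Fn14 KO, 3.11, 2.86, 2.66 and 2.59 in Fn14alpha KO, 2.6, 1.42, 2.44 and 2.42 with TWEAK, and 3.15, 3.55, 2.49 and 3.64 in WT. This gene of the forearm and uterus was lower in Fn14 KO by a log2 fold change of -0.89 ± 0.16 (edgeR adjusted p = 4.87e-05). HOXA4, HOXA9 and HOXA10 were also lower, at -0.64 ± 0.15, -1.24 ± 0.39 and -0.60 ± 0.16 (edgeR adjusted p = 0.00125, 0.0103 and 0.00272), and HOXA9 lost its call with no filter (adjusted p = 0.0597). HOXA7 had -0.57 ± 0.25 and did not pass. HOXA13, the posterior end gene altered in hand-foot-genital syndrome, was low everywhere but higher in both knockouts than in WT. It had 0.415 ± 0.058 FPKM in Fn14 KO, 0.445 ± 0.174 in Fn14alpha KO and 0.335 ± 0.0705 with TWEAK, against 0.215 ± 0.0129 in WT, and the libraries of each of these groups lay above all WT libraries. The log2 fold change of HOXA13 was 1.06 ± 0.26 in Fn14 KO and 1.01 ± 0.26 in Fn14alpha KO (edgeR adjusted p = 0.00145 and 0.00302). It was 0.05 ± 0.24 between the knockouts and 0.68 ± 0.27 with TWEAK, and passed in neither (edgeR adjusted p = 0.881 and 0.144). The promoters of HOXA2 and HOXA13 are shown because their genes sit near opposite ends of the cluster and moved in opposite directions in Fn14 KO. Both lie on the minus strand, at chr7:27102634-27102933 for HOXA2 and chr7:27200042-27200341 for HOXA13 (RefSeq, GRCh38.p14), and are given 5′ to 3′ along the gene. Capitals mark the letters TGATNNAT, a core sequence bound by HOX and PBX together, searched on both strands, with the HOXA2 match on the opposite strand.
HOXA2: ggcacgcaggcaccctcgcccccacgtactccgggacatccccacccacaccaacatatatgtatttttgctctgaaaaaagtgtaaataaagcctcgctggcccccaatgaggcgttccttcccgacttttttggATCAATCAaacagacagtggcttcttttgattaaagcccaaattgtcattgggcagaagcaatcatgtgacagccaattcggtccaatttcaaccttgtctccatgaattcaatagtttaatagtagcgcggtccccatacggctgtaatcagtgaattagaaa
HOXA13: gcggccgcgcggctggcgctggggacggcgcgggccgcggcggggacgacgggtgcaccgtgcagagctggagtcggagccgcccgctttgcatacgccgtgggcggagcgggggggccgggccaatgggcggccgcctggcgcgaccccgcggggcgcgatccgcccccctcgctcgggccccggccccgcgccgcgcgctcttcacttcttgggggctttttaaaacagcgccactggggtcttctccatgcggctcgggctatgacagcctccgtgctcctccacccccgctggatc
The letters TGATNNAT occurred in 7.4% of all promoters and in 4 of the 39 member entries, those of HOXA2, HOXB1, HOXD11 and TBX10. The HOXA13 window held the pair C followed by G 44 times and that of HOXA2 11 times.

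HOXA did not move as a block in Fn14alpha KO. Only HOXA4, at 0.47 ± 0.14, and HOXA13 passed the test against WT (edgeR adjusted p = 0.0089 for HOXA4), and the median of the 10 genes was 0.13. Of all genes, 42.2% were called in this comparison. In Fn14 KO against Fn14alpha KO, 8 of the 10 HOXA genes were lower, with a median of -1, where 28.5% of all genes were called lower. HOXA2, HOXA3, HOXA4 and HOXA5 differed by -1.42 ± 0.19, -1.33 ± 0.14, -1.10 ± 0.15 and -1.49 ± 0.17 (edgeR adjusted p = 5.33e-07, 1.82e-08, 9.11e-07 and 9.28e-08). HOXA7 was also lower, at -0.68 ± 0.25 (edgeR adjusted p = 0.0239), a call lost without Fn14 KO replicate 1 (0.0917) or Fn14alpha KO replicate 1 (0.118).

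HOXB spans 200 kb at chr17:48528526-48728750 (GRCh38), and its summed level was 104 ± 8.9 FPKM in Fn14 KO, 133 ± 1.27 in Fn14alpha KO and 88.1 ± 2.82 with TWEAK, against 104 ± 7.66 in WT. Of 9 HOXB genes tested, 2 were higher and 3 lower in Fn14 KO, a share called near the 52.9% of all genes. In Fn14alpha KO 5 were higher and the other 4 were not called, where 42.2% of all genes were called. The 69 other genes within 2000 kb had medians of -0.20 in Fn14 KO and 0.10 in Fn14alpha KO. HOXB9, a gene of the thoracic skeleton and mammary gland, had 3.7, 5.61, 5.35 and 5.19 FPKM in Fn14 KO, 24.64, 23.64, 22.6 and 23.81 in Fn14alpha KO, 11.45, 12.98, 11.47 and 11.42 with TWEAK, and 9.32, 9.87, 9.86 and 9.22 in WT. The 4 groups of HOXB9 did not overlap at all. Its log2 fold change was -0.83 ± 0.10 in Fn14 KO and 1.27 ± 0.09 in Fn14alpha KO (edgeR adjusted p = 9.93e-08 and 3.27e-11). HOXB8, which marks blood and microglial precursors in mice, had 0.06, 0.15, 0.06 and 0.21 FPKM in Fn14 KO, 1.01, 0.94, 0.81 and 1.28 in Fn14alpha KO, 0.19, 0.3, 0.39 and 0.47 with TWEAK, and 0.5, 0.27, 0.55 and 0.34 in WT. For HOXB8, Fn14 KO lay below and Fn14alpha KO above all WT libraries, and the lowest TWEAK library overlapped Fn14 KO. HOXB8 had log2 fold changes of -1.62 ± 0.41 in Fn14 KO and 1.26 ± 0.29 in Fn14alpha KO (edgeR adjusted p = 0.00184 and 0.0012). Between the knockouts HOXB9 differed by -2.10 ± 0.09 and HOXB8 by -2.87 ± 0.36 (edgeR adjusted p = 3.3e-15 and 3.11e-07).

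At the anterior end of the cluster, HOXB2 was higher in Fn14 KO than in WT by 0.91 ± 0.07 and in Fn14alpha KO by 0.25 ± 0.07 (edgeR adjusted p = 1e-10 and 0.00563), and all libraries of both knockouts lay above those of WT. With the median of the 20 tested genes on each side removed, the HOXB2 value in Fn14alpha KO was 0.17 and did not pass (adjusted p = 0.0664). HOXB3 and HOXB4 were higher in Fn14alpha KO, at 0.66 ± 0.11 and 0.49 ± 0.08 (edgeR adjusted p = 4.9e-05 and 1.84e-05), and had 0.02 ± 0.11 and 0.14 ± 0.08 in Fn14 KO, where they did not pass. HOXB5 was higher in Fn14 KO by 0.43 ± 0.14 (edgeR adjusted p = 0.0106), with overlapping libraries, and lost its call without Fn14 KO replicate 1 (0.0563) or WT replicate 2 (0.0526). HOXB7 was lower in Fn14 KO by -0.31 ± 0.10 (edgeR adjusted p = 0.0148), and this call was lost without Fn14 KO replicate 3 (0.0638), Fn14 KO replicate 4 (0.0628) or WT replicate 4 (0.0747). It was also lost with only the 2 groups compared (0.0523) and with the neighbouring genes' median removed (-0.21, edgeR adjusted p = 0.115). HOXB6 and HOXB13 had log2 fold changes of -0.25 to 0.07 in the knockouts and did not pass against WT. Between the knockouts HOXB2 was higher in Fn14 KO, by 0.66 ± 0.07, and HOXB3, HOXB4, HOXB7, HOXB8 and HOXB9 were lower. The HOXB7 call (-0.30 ± 0.10, edgeR adjusted p = 0.0179) was lost without Fn14 KO replicate 3 (0.0734) or replicate 4 (0.0733), and with neighbouring genes' median removed HOXB4 (-0.17) and HOXB7 (-0.11) did not pass. HOXB13 was called higher by 0.33 ± 0.13 (edgeR adjusted p = 0.0387), with overlapping libraries. That call was lost in 11 of 27 alternatives. It was lost without Fn14 KO replicate 1 or 2, Fn14alpha KO replicate 2 or 4, or WT replicate 2 (adjusted p = 0.0502 to 0.168). It was also lost with total counts (0.18, adjusted p = 0.262), only the 2 groups compared (0.104) and limma on log2(FPKM + 0.1) (0.3), among others.

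Of the 9 HOXC genes, 5 fell in Fn14alpha KO, by about as much as the genes around the cluster, and in Fn14 KO the members moved in both directions. The cluster spans 117 kb at chr12:53938831-54056030 (GRCh38). In Fn14alpha KO, HOXC4, HOXC6, HOXC8, HOXC9 and HOXC13 were lower than in WT, with log2 fold changes of -0.59 to -0.34, and the other 4 genes tested were not called. In that comparison 42.2% of all genes were called, and 22.2% were called lower. The 76 other tested genes within 2000 kb had a median of -0.43, with 43 lower and 4 higher, and the 853 tested genes of chromosome 12 had a median of -0.47. With the median of the 20 tested genes on each side removed, the 5 HOXC genes had log2 fold changes of -0.17 to 0.08 and none passed. HOXC10, at -0.02 ± 0.10, was not called and lay 0.39 above that median, while HOXC5, HOXC11 and HOXC12 lay 0.04 to 0.10 above it. In Fn14 KO, where the same 76 genes had a median of -0.09, 4 HOXC genes were lower and 2 were higher. Of all genes, 52.9% were called in Fn14 KO (26.3% lower and 26.6% higher). HOXC13, a gene of hair and nails at the posterior end, had 8.52, 10.16, 9.06 and 8.84 FPKM in Fn14 KO, 3.08, 3.24, 3.1 and 2.93 in Fn14alpha KO, 3.98, 3.97, 3.78 and 3.88 with TWEAK, and 5.44, 4.55, 4 and 4.23 in WT. All Fn14 KO libraries lay above and all Fn14alpha KO and TWEAK libraries below those of WT. With TWEAK the log2 fold change was -0.16 ± 0.10 and did not pass (edgeR adjusted p = 0.388). The TWEAK and WT libraries were separate for 17.4% of all genes. The log2 fold change of HOXC13 was 1.13 ± 0.09 in Fn14 KO (edgeR adjusted p = 4.53e-10), and between the knockouts it was 1.72 ± 0.10 (edgeR adjusted p = 4.59e-13).

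The neighbour of HOXC13 went down while the next one went up. HOXC12 had 0.128 ± 0.0732 FPKM in Fn14 KO, 0.662 ± 0.0613 in Fn14alpha KO and 0.61 ± 0.185 with TWEAK, against 0.84 ± 0.272 in WT, a log2 fold change of -2.56 ± 0.33 in Fn14 KO (edgeR adjusted p = 6.32e-07). HOXC11 had 2.05 ± 0.229 FPKM in Fn14 KO, 0.932 ± 0.255 in Fn14alpha KO and 0.895 ± 0.13 with TWEAK, against 1.15 ± 0.134 in WT, a log2 fold change of 0.96 ± 0.16 in Fn14 KO (edgeR adjusted p = 2.22e-05). Both were separate from WT in Fn14 KO. The anterior genes HOXC4, HOXC5 and HOXC6 were lower in Fn14 KO, at -0.41 ± 0.09, -0.99 ± 0.28 and -0.39 ± 0.10 (edgeR adjusted p = 0.000283, 0.00431 and 0.00247). HOXC8, HOXC9 and HOXC10 had 0.05 ± 0.11, -0.20 ± 0.09 and 0.07 ± 0.10 and did not pass.

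**Figure D4:**
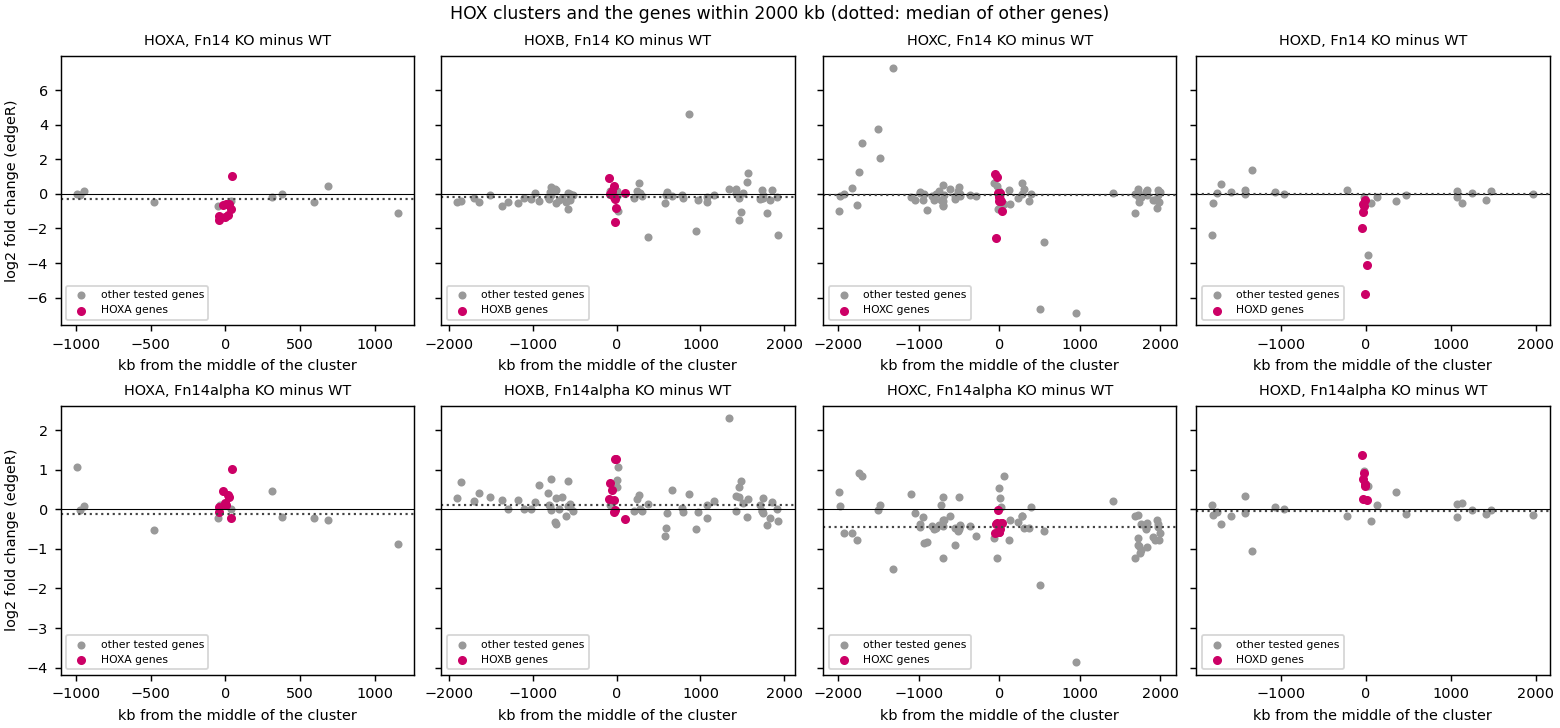
Log2 fold change (edgeR) of HOX genes (magenta) and of the other tested genes within 2000 kb (grey) against distance in kb from the middle of each cluster, for Fn14 KO (upper row) and Fn14alpha KO (lower row) against WT. The dotted line is the median of the grey points. In the HOXD panel of Fn14 KO the magenta points lie under a median of 0.01, and in the HOXC panel of Fn14alpha KO they lie around a median of -0.43.

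Of the TBX genes, TBX2, TBX3 and TBX18 were expressed in all groups and TBX1 in Fn14alpha KO. TBX3, a repressor of senescence genes that is altered in ulnar-mammary syndrome, had 18.29, 24.7, 22.98 and 24.44 FPKM in Fn14 KO, 9.08, 7.75, 8.39 and 9.16 in Fn14alpha KO, 13.7, 13.53, 13.48 and 12.51 with TWEAK, and 13.44, 13.26, 13.24 and 11.53 in WT. All Fn14 KO libraries lay above and all Fn14alpha KO libraries below those of WT. The log2 fold change of TBX3 was 0.93 ± 0.08 in Fn14 KO and -0.61 ± 0.08 in Fn14alpha KO (edgeR adjusted p = 8.81e-10 and 1.98e-06). TBX3 lies on chromosome 12, and with the median of the 20 tested genes on each side removed its value in Fn14alpha KO was -0.10 and did not pass (adjusted p = 0.4). TBX1, the pharyngeal arch gene of DiGeorge syndrome, had the largest fold change of the members in Fn14alpha KO and between the knockouts. It had 0.02, 0.03, 0.04 and 0 FPKM in Fn14 KO, 4.96, 4.39, 4.36 and 4.98 in Fn14alpha KO, 0.42, 0.61, 0.67 and 0.55 with TWEAK, and 0.78, 0.48, 0.64 and 0.36 in WT. Fn14alpha KO lay far above and Fn14 KO far below the WT libraries, and TWEAK overlapped them. TBX1 was higher in Fn14alpha KO by 3.02 ± 0.17 (edgeR adjusted p = 9.29e-13). The 5 counts of TBX1 in Fn14 KO against 139 in WT gave a ratio of 0.0369 (95% exact counting interval 0.0118 to 0.0883), with a fitted log2 fold change of -4.52 ± 0.42 (edgeR adjusted p = 2.8e-09). Between the knockouts the fitted value was -7.54 ± 0.29 (edgeR adjusted p = 3.38e-16).

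The promoter of TBX1 is shown because this gene was near 0 in Fn14 KO and highest in Fn14alpha KO. It lies at chr22:19756453-19756752 on the plus strand (RefSeq, GRCh38.p14).
TBX1: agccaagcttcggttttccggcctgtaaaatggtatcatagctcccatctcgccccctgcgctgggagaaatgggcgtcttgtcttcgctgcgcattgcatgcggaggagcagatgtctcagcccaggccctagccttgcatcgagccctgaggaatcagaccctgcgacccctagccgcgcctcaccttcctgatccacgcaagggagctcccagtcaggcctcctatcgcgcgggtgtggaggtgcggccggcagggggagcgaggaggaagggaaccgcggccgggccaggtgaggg
It held none of the motifs TGATNNAT, TATAAA and AGGTGTGA, the last being a core sequence bound by T-box proteins, which 0.98% of all promoters and none of the 39 member entries held. The pair C followed by G occurred 22 times.

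**Figure D5:**
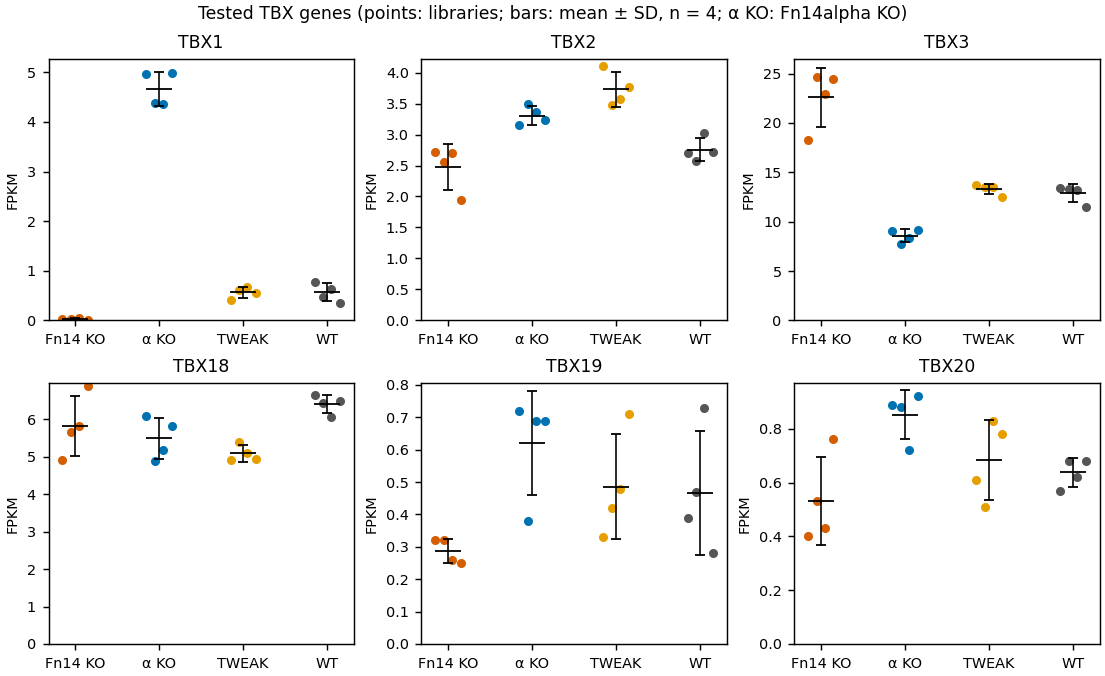
FPKM in each library of the 6 TBX genes that passed the filter. Points are libraries, bars are mean ± SD (n = 4), and α KO is Fn14alpha KO. TBX1 is high in Fn14alpha KO and near 0 in Fn14 KO, and TBX3 is highest in Fn14 KO and lowest in Fn14alpha KO.

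TBX18, a gene of the epicardium and ureter mesenchyme, had 5.82 ± 0.807 FPKM in Fn14 KO, 5.49 ± 0.554 in Fn14alpha KO and 5.09 ± 0.224 with TWEAK, against 6.42 ± 0.247 in WT. Its log2 fold change in Fn14alpha KO was -0.26 ± 0.08 (edgeR adjusted p = 0.0165), a call lost without Fn14alpha KO replicate 2 (0.0689) or replicate 3 (0.0585). The call was also lost with limma on log2(FPKM + 0.1) (0.0514). With the neighbouring genes' median removed, TBX18 had -0.09 in Fn14alpha KO and did not pass (edgeR adjusted p = 0.475). In Fn14 KO the log2 fold change of TBX18 was -0.02 ± 0.08 and did not pass. Between the knockouts TBX18 was called higher by 0.23 ± 0.08 (edgeR adjusted p = 0.0208), a call lost without Fn14 KO replicate 4 (0.118) and Fn14alpha KO replicate 2 (0.084) or 3 (0.0785). That call was also lost with total counts (0.08, adjusted p = 0.419) and with only the 2 groups compared (0.0748). The same held with limma on log2(FPKM + 0.1) or log2(FPKM + 1) (0.461 and 0.459). After subtraction of its neighbours' median TBX18 was -0.17 (0.0959). TBX2, a close relative of TBX3, had 2.48 ± 0.366 FPKM in Fn14 KO and 3.31 ± 0.149 in Fn14alpha KO, against 2.76 ± 0.186 in WT, and did not pass against WT in either. It was called lower in Fn14 KO than in Fn14alpha KO, by -0.27 ± 0.10 (edgeR adjusted p = 0.0258), a call lost without Fn14 KO replicate 4 (0.134) or Fn14alpha KO replicate 2 (0.0712). TBX19, the pituitary gene that drives POMC, had -0.97 ± 0.29 between the knockouts (edgeR adjusted p = 0.00681) and did not pass against WT. TBX20, a heart gene, passed in no comparison.

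After 2 h of TWEAK, 3 of 35 HOX genes and 2 of 6 TBX genes were called against WT, where 6.87% of all genes were. The HOX share, 8.57%, was near that background. No HOXA, HOXC or HOXD gene passed the edgeR test, and 3 HOXA, 2 HOXC and 2 HOXD genes had an unadjusted p under 0.05. DESeq2's Wald test called 6 members in all, 2 higher and 4 lower. HOXB5, a lung and gut mesenchyme gene, was lower with 1.58 ± 0.0971 FPKM with TWEAK, against 2.58 ± 0.359 in WT (log2 fold change -0.65 ± 0.15, edgeR adjusted p = 0.00764). TBX2 was higher with 3.73 ± 0.282 FPKM, against 2.76 ± 0.186 in WT (0.49 ± 0.10, edgeR adjusted p = 0.00175). Both were separate from WT, where 17.4% of all genes were, and kept their call in all alternatives run. HOXB9 was higher by 0.36 ± 0.09 (edgeR adjusted p = 0.0112), a call lost without TWEAK replicate 2 (0.0555) and with limma on log2(FPKM + 0.1) or log2(FPKM + 1) (0.0695 and 0.0514). HOXB2 (-0.25 ± 0.07) and TBX18 (-0.28 ± 0.08) were lower with adjusted p of 0.038 and 0.0489 in edgeR, and lost their calls in 11 and 15 of 27 alternatives. The count of called members was 8 without Fn14 KO replicate 1 and 2 without TWEAK replicate 2. It was 3 without TWEAK replicate 3 or 4, Fn14alpha KO replicate 3, Fn14 KO replicate 2 or WT replicate 4. With scaling to total counts, 2 members were higher and 6 lower.

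Few noncoding RNAs of the clusters were called. Of 12 tested, 1 was higher and 3 lower in Fn14 KO, and 2 higher and 1 lower in Fn14alpha KO, while 52.9% and 42.2% of all genes were called. Some had few counts over all 16 libraries, such as HOXD-AS2 with 166, against 2040 for HOTAIR. The part of low counts in these shares was not tested. HAGLR, antisense in HOXD next to HOXD1 and HOXD3, had 0.065 ± 0.0208 FPKM in Fn14 KO and 1.25 ± 0.11 in Fn14alpha KO, against 0.805 ± 0.119 in WT, with log2 fold changes of -3.51 ± 0.24 and 0.60 ± 0.15 (edgeR adjusted p = 1.49e-11 and 0.00211). HOXA-AS2 and HOTAIRM1, both from the anterior part of HOXA, were lower in Fn14 KO by -1.41 ± 0.24 and -0.72 ± 0.12 (edgeR adjusted p = 2.4e-05 and 1.29e-05). HOTAIR, transcribed from between HOXC11 and HOXC12 and known for binding Polycomb proteins, was higher in Fn14 KO by 0.46 ± 0.12 and lower in Fn14alpha KO by -1.24 ± 0.13 (edgeR adjusted p = 0.00177 and 7.41e-08). HOXD-AS2 was called higher in Fn14alpha KO by 0.98 ± 0.37 (edgeR adjusted p = 0.0381). That call was lost with no filter (0.0656), under the replicate block (0.053), without Fn14alpha KO replicate 1 (0.131) or 3 (0.0696), and without WT replicate 2 (0.0753), 3 (0.106) or 4 (0.077), and without both libraries that stood apart (0.0623). No noncoding RNA was called with TWEAK by edgeR, where HOTAIR had -0.38 ± 0.12 (adjusted p = 0.0669). No source used here says if counting used strand, so reads of a gene and its antisense partner cannot be told apart where their exons overlap. In GENCODE 29, where 15 of the 52 members have the same position as in the table, over 20% of exonic bases lie on the opposite strand of another gene in HOXA6, HOXA7, HOXA11 and HOXD1, and on the same strand of another in HOXA4, HOXC5 and HOXD11. Of 17 tested genes named as lying beside the clusters, 3 were higher and 5 lower in Fn14 KO, 7 were lower in Fn14alpha KO, and 1 was higher with TWEAK, against the same shares of all genes in the knockouts.

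Genes that act with or on HOX proteins were examined next. Of 9 HOX cofactors tested, 3 were higher and 1 lower in Fn14 KO, 2 higher and 3 lower in Fn14alpha KO, and 3 lower with TWEAK. The calls were 4 of 9 in Fn14 KO and 5 of 9 in Fn14alpha KO, where 52.9% and 42.2% of all genes were called, and 3 of 9 with TWEAK, where 6.87% were. MEIS3 had 6.36 ± 0.701 FPKM in Fn14 KO and 11.4 ± 0.74 in Fn14alpha KO, against 14.6 ± 1.47 in WT, with log2 fold changes of -1.08 ± 0.09 and -0.40 ± 0.08 (edgeR adjusted p = 2.52e-10 and 0.000577). Of 27 Polycomb and trithorax genes tested, 11 were higher and 1 lower in Fn14 KO, 9 higher and 3 lower in Fn14alpha KO, and 2 higher with TWEAK. That is 12 of 27 in each knockout, against the same 52.9% and 42.2% of all genes. In Fn14 KO the smallest adjusted p belonged to JARID2, which recruits Polycomb (0.84 ± 0.10), and to KDM6A, RNF2 and RBBP5 (0.75 ± 0.10, 0.56 ± 0.07 and 0.49 ± 0.08). After subtraction of their neighbours' median, KDM6A, RNF2 and RBBP5 had 0.02, 0.11 and 0.03 and did not pass. KDM6B, which removes the Polycomb mark, was higher with TWEAK by 0.75 ± 0.12 (edgeR adjusted p = 0.000135).

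Of 10 tested genes of retinoic acid signalling, 2 were higher and 6 lower in Fn14 KO, 4 higher and 2 lower in Fn14alpha KO, and 2 higher and 1 lower with TWEAK. These were 8 and 6 of 10 in the knockouts, against 52.9% and 42.2% of all genes, and 3 of 10 with TWEAK, against 6.87%. DHRS3, which turns retinaldehyde back to retinol, had 0.035 ± 0.0265 FPKM in Fn14 KO, 0.885 ± 0.156 in Fn14alpha KO and 0.792 ± 0.281 with TWEAK, against 1.55 ± 0.0991 in WT. It was lower in all 3 comparisons, by -5.18 ± 0.36, -0.84 ± 0.21 and -0.92 ± 0.21 (edgeR adjusted p = 1.54e-11, 0.00202 and 0.00628). CYP26B1, which degrades retinoic acid, had 0.0225 ± 0.0222 FPKM in Fn14 KO and 1.19 ± 0.322 in Fn14alpha KO, against 0.38 ± 0.148 in WT, and was lower in Fn14 KO and higher in Fn14alpha KO (edgeR adjusted p = 7.67e-07 and 2.67e-05). ALDH1A3, which makes retinoic acid, and CRABP2, which carries it, were lower in Fn14 KO by -1.35 ± 0.10 and -2.14 ± 0.22 (edgeR adjusted p = 4.95e-11 and 1.19e-08). Of 15 tested transcription factors of liver mesenchyme and fibroblasts, 7 were higher and 5 lower in Fn14 KO, 7 higher and 2 lower in Fn14alpha KO, and 2 higher and 2 lower with TWEAK, which made 12 and 9 of 15 in the knockouts, against the same shares of all genes. LHX2, which restrains stellate cell activation in mice, had 4.62 ± 0.719 FPKM in Fn14 KO, against 10.1 ± 0.686 in WT (log2 fold change -1.01 ± 0.10, edgeR adjusted p = 6.25e-09). NR2F1 was higher in both knockouts, by 1.94 ± 0.07 in Fn14 KO and 1.52 ± 0.07 in Fn14alpha KO (edgeR adjusted p = 1.13e-16 and 3.33e-14). The CDX genes, which act upstream of HOX genes in the embryo, held at most 3 counts each over all libraries, and of the T-box genes named otherwise only MGA was tested, with 0.36 ± 0.09 in Fn14alpha KO (edgeR adjusted p = 0.00256) and -0.01 in Fn14 KO.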

How the data were processed

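RNA of 16 LX-2 libraries was measured by poly(A) RNA-seq. The deposited table gives a raw read count per Ensembl gene and library, and FPKM values, which the authors scaled by exonic size and by library total, judging by the file headers. The tools, per the submitters' processing notes, included HISAT2 2.0.1, FastQC 0.10.1, HTSeq 0.6.1, DESeq2 and cutadapt 1.9.1, with builds GRCh38.p13 and hg38. No source used here gives the strand setting or the annotation release.

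Counts were tested here with edgeR 4.0.16 (R 4.3.3; quasi-likelihood, two-sided, TMM, filterByExpr by group, 1 mean per group over all 16 libraries), with Benjamini-Hochberg adjustment over 16029 genes and a threshold of 0.05. SE is the log2 fold change divided by the square root of F. Levels are deposited FPKM, mean ± SD. Alternatives used DESeq2 1.42.0 and limma 3.58.1, other scalings and filters, and libraries left out. For 1 of them, the median log2 fold change of the 20 tested genes on each side (members left out) was subtracted. Between the 24 replicate pairs, chi-square over its degrees of freedom ran from 2.3 to 39, so each library was counted separately. Same-numbered libraries of different groups did not deviate together, so the numbers were not used as pairs.

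Values are given per library for expressed members called against WT at 1 or more log2 units in either direction, and for the highest member of each cluster. Of the other lists (cofactors, Polycomb and trithorax, retinoic acid, noncoding RNAs, genes beside the clusters, mesenchyme factors, CDX, other T-box genes, cell type markers), up to 4 called genes are named. Single results of some genes are not reported here. The members and lists were chosen with earlier results of these data known. Promoters are RefSeq's (GRCh38.p14). Gene positions come from the deposited table and exon overlap from GENCODE 29. Plots were drawn with Python 3.11.15 and matplotlib 3.10.9. Intervals and count limits cover counting error only.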

Additional observations from a re-analysis of the deposited data

Results flagged for a closer look

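In groups of 4 libraries, a library was marked where its gap to the nearest other library passed Dixon's critical value for 4 samples, as a share of the group's whole range. Of 144 groups of member levels, 7 were marked, and chance marks about 1 in 20, or 7.2. HOXA11 had 1.42 FPKM in TWEAK replicate 2, against 2.42 to 2.6 in the other TWEAK libraries. HOXB9 had 12.98 FPKM in the same library, against 11.42 to 11.47. HOXC6 had 5.85 FPKM in WT replicate 3, against 4.3 to 4.45 in the other WT libraries. HOXC8 had 2.17 FPKM in Fn14alpha KO replicate 2, against 2.94 to 3.08. HOXD3 had 0.03 FPKM in Fn14 KO replicate 4, where the other 3 libraries were at 0. HOXD13 had 0.05 FPKM in Fn14 KO replicate 2, against 0.15 to 0.17. TBX3 had 11.53 FPKM in WT replicate 4, which stood apart on component 3, against 13.24 to 13.44 in the other WT libraries.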

How the results depend on the processing

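Of the member calls, 23 of 28 in Fn14 KO, 11 of 20 in Fn14alpha KO, 2 of 5 with TWEAK and 24 of 32 between the knockouts were kept under all alternatives run. Leaving out 1 library gave 27 to 30, 19 to 21, 2 to 8 and 30 to 32 called members in the same order, and 8012 to 8867, 6038 to 7471, 759 to 1604 and 8937 to 9852 called genes. With the median of neighbouring genes removed, 13 members were called in Fn14alpha KO, all higher, and 3 with TWEAK. HOXC4 in Fn14alpha KO (0.08), TBX18 between the knockouts (-0.17), MEIS2 in Fn14 KO (-0.04) and BMI1 between the knockouts (-0.14) then changed sign, as the subtraction itself sets. With total counts, 8 members were called with TWEAK, and the median of all genes shifted to -0.12 in Fn14 KO and -0.15 between the knockouts. The share of called genes that were higher was then 36% in Fn14 KO (50.2% with TMM), 37.3% between the knockouts (51.9%) and 43.9% with TWEAK (70.2%), while members split into 5 higher and 26 lower, 6 and 28, and 2 and 6. With the replicate number as a block, 3 members were called with TWEAK, and 28, 20 and 31 in Fn14 KO, in Fn14alpha KO and between the knockouts. Correlations of same-numbered libraries ran from -0.228 to 0.108, so the numbers were not taken as pairs. Without both libraries that stood apart, 30, 21, 5 and 31 members were called in Fn14 KO, in Fn14alpha KO, with TWEAK and between the knockouts. With limma on log2(FPKM + 1), where low genes have smaller fold changes by construction, TBX1 had -0.61 in Fn14 KO. At this depth, genes with a few counts per group, such as HOXD1, HOXD12 and TBX15, could not be compared.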
